A study of Bos taurus with 36 samples.

Results

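The genes described here encode the myosin of the heart's thick filament and the proteins that bind or phosphorylate it: the heavy chains MYH6 and MYH7, the light chains MYL2, MYL3, MYL4 and MYL7, the cardiac myosin-binding protein MYBPC3 and the cardiac light chain kinase MYLK3. They were taken by their symbols, matched through bovine RefSeq to the Entrez identifiers of the deposited table, which gave 8 of 35092 genes. The RNA came from the organs of 10 male cattle fetuses, collected on Day 42 of pregnancy, and from blood of the heifers that carried them. The fetuses are numbered from 1, the lightest at 1.253 g, to 10, the heaviest at 1.69 g. The heart was sequenced in 9 of them (not in fetus 7), the gonads in 9 (not in fetus 2), the liver in 8 (not in fetuses 6 and 7) and blood from all 10 heifers. The submitters had discarded the other organ samples at RNA quality control. Each organ library came from 1 fetus.

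Every pregnancy began with the transfer of an embryo of one age into a synchronized heifer. In the ET_D7 group (fetuses 1 to 5, up to 1.37 g) the recipient was at the matching stage of her cycle, and in the ET_D9 group (fetuses 6 to 10, from 1.396 g) she was further on in it. All ET_D9 fetuses were therefore heavier than all ET_D7 fetuses, and weight and transfer group cannot be told apart by their order. The hearts were whole dissected organs, with no separation of atria from ventricles, and in such bulk tissue fewer cells of a type and less RNA per cell cannot be told apart.

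A myosin molecule of heart muscle has a pair of heavy chains, each carrying an essential and a regulatory light chain. In the adult mammalian heart MYH6 (alpha), MYL7 and MYL4 are the typical forms of the atria, and MYH7 (beta), MYL2 and MYL3 those of the ventricles, while the chambers of the fetal heart share several of them. MYH7, MYL2 and MYL3 are also the forms of slow skeletal muscle, MYL4 is found in embryonic skeletal muscle, MYBPC3 sets how readily myosin heads reach actin, and MYLK3 phosphorylates the regulatory light chain.

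Total counts ran from 20930367 to 35857434 for hearts, 22762065 to 39649051 for gonads, 18231089 to 34454772 for livers and 26602415 to 40812354 for blood, and levels are given as CPM, counts per 1000000 counts of the library after TMM scaling. Mitochondrially encoded genes took 17.1% to 57.3% of the heart counts. The liver libraries of fetuses 1 and 2 differed by less than the sampling noise, with a median chi-square of 0.242 times its expected value over genes against at least 1.93 in every other pair of libraries of one tissue, and they were counted as 1 sample in each mean (n = 7). The edgeR tests between organs kept all 8 liver libraries, so these 2 entered them as separate replicates, and averaging them changed no call of the 8 genes described here. A further 333 genes, MYH7 and MYL2 among them, had at most 2 counts in some livers and 300 or more in each of the rest, while 1 gene did so among the hearts, 1 among the gonads and 2 in blood. Of the 10 cardiomyocyte markers, 9 exceeded both other organs in the heart, as 11.1% of all genes did. PLN was listed at 0 in every library. In the gonad libraries the defining markers went partly against the label: GATA4, a factor of gonadal somatic cells, had a mean of 0.0524 CPM there, while PAX2, a gene of the mesonephros beside the gonad, had 114 CPM. Summed over the lists, 5 Sertoli markers had 3.31 to 14.4 CPM and 6 mesonephros and kidney markers 127 to 168 CPM in the gonad libraries. MYH6 and MYH7 are close paralogs that neighbour each other in RefSeq (assembly ARS-UCD2.0), and how reads shared between them were counted is not given in the sources used here, so the division of counts between them is uncertain. The same assembly places CDC27 over part of MYL4.

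The 8 genes together took 1.54% to 3.41% of all heart counts, with a median of 2.38%. Among the counts that were not mitochondrial, their share lay between 3.61% and 4.29% in all 9 hearts. In the gonads they held 498 to 923 counts in all per library. The corresponding totals were 513 to 42492 in the livers and 130 to 167690 in maternal blood, and the high ends came from few libraries, described below. Levels of different genes were not set against each other, because transcript lengths were not used here.

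**Figure D1:**
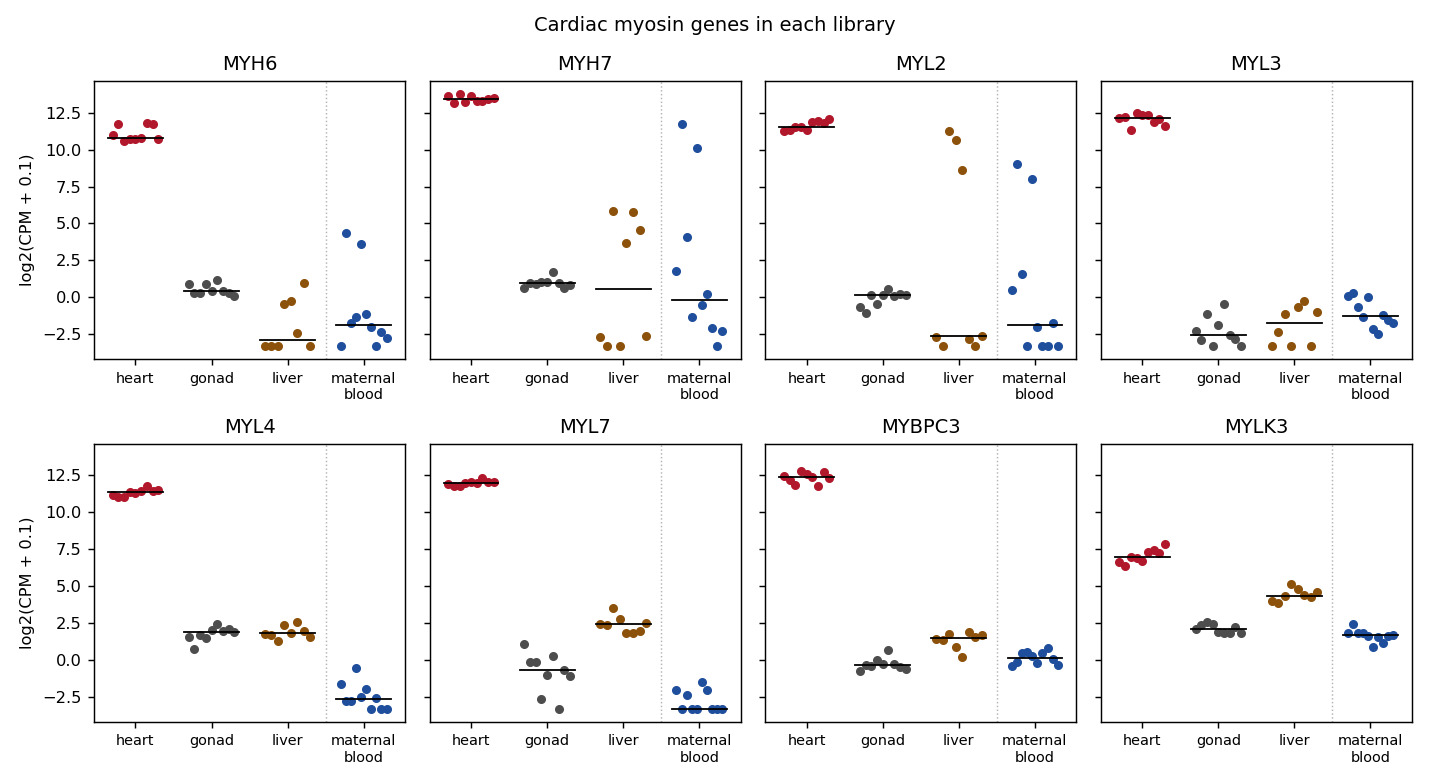
Level of each gene in every library, as log2 of CPM plus 0.1, for the 9 hearts, 9 gonads, 8 livers and, right of the dotted line, 10 maternal blood libraries made with another kit; points run from the lightest to the heaviest fetus and lines are medians. The hearts lie above all gonad and liver libraries for each gene, MYL2 is high in 3 liver libraries, and MYH7 and MYL2 are high in 2 blood libraries.

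The first question was how far these genes separate the heart from the other 2 organs. All 8 were higher in the heart than in the gonads, where 23.5% of the 25095 genes tested were higher, and 7 of the 8 were higher than in the liver, where 27.9% of genes were. The same 7 were higher than in both organs, as were 11.1% of all genes, and the exception was MYL2, whose liver counts are given below. The median log2 fold change of the 8 was 12.16 over the gonads and 9.50 over the liver, against -0.0785 and 0 over all genes. No gonad or liver library reached the lowest heart library for any of the 8, which held for 5.22% of all genes. All fold changes and adjusted p-values between organs are from edgeR's quasi-likelihood test with Benjamini-Hochberg adjustment over all genes tested.

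Of the heavy chains, MYH6 ran from 1549 CPM in fetus 3 to 3598 CPM in fetus 8 among the hearts, with a median of 1787 CPM. Its 9 values fell apart into 6 hearts at or under 2049 CPM and 3 hearts (fetuses 2, 8 and 9) at or over 3340 CPM. In the gonads MYH6 had 56 to 114 counts per library, or 1.38 ± 0.404 CPM (SD, n = 9), and the livers had 0 to 38 counts. MYH6 was higher in the heart by 10.70 on the log2 scale over the gonads (SE 0.556, adjusted p = 2.13e-15, edgeR) and by 12.36 over the liver (adjusted p = 9.27e-16, edgeR).

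MYH7 ranged from 9082 CPM in fetus 2 to 14110 CPM in fetus 3 in the heart, with a median of 10810 CPM. The gonads held 54 to 160 counts of it, 1.91 ± 0.528 CPM (SD, n = 9). Its log2 fold change was 12.51 over the gonads (SE 1.14, adjusted p = 3.45e-10, edgeR) and 9.25 over the liver (SE 1.07, adjusted p = 1.86e-08, edgeR). Its liver counts, either at most 1 or at least 398, are described further on.

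Among the regulatory light chains, MYL7 was the steadiest in the heart, at 4085 ± 471 CPM (SD, n = 9) and between 3480 and 5088 CPM. It had 0 to 74 counts in the gonads and 76 to 192 in the livers. Its log2 fold changes were 12.61 (SE 0.596, adjusted p = 2.63e-16, edgeR) and 9.52 (SE 0.561, adjusted p = 1.4e-14, edgeR). MYL2, the ventricular counterpart, had 3220 ± 667 CPM in the heart (SD, n = 9), between 2506 CPM in fetus 1 and 4281 CPM in fetus 10. The gonads held 20 to 67 counts of MYL2, and the heart was higher by 11.82 on the log2 scale (SE 1.75, adjusted p = 1.96e-06, edgeR).

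Of the essential light chains, MYL3 showed the widest separation of the heart, at 4346 ± 1019 CPM (SD, n = 9). No gonad library held more than 32 counts of MYL3 and no liver library more than 18, and 2 gonad and 3 liver libraries held 0, which allows up to 3 counts. The fold changes of MYL3 were 14.74 over the gonads (SE 0.684, adjusted p = 1.76e-16, edgeR) and 13.87 over the liver (SE 0.715, adjusted p = 7.46e-16, edgeR) on the log2 scale. MYL4 had 2641 ± 447 CPM in the heart (SD, n = 9) and was low but present in every other organ library, with 81 to 259 counts in the gonads and 39 to 139 in the livers. It was higher in the heart by 9.59 over the gonads and 9.47 over the liver (SE 0.259 and 0.274, adjusted p = 1.83e-21 and 4.39e-21, edgeR).

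MYBPC3 had 5340 ± 1277 CPM in the heart (SD, n = 9), 18 to 75 counts in the gonads and 25 to 86 in the livers. Its log2 fold changes were 12.76 and 11.01 (adjusted p = 1.57e-21 and 9.62e-21, edgeR). The kinase MYLK3 had the smallest fold change over the gonads of the 8 genes: its hearts ran from 83.1 to 232 CPM, its livers from 14.6 to 34.5 CPM and its gonads from 3.39 to 5.87 CPM. These 3 ranges did not overlap. MYLK3 was higher in the heart by 4.99 over the gonads (SE 0.211, adjusted p = 2.13e-17, edgeR) and by 2.64 over the liver (SE 0.198, adjusted p = 2.71e-12, edgeR).

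In the order of levels, heart stood first for all 8 genes and the next place differed. Between liver and gonads, 5 of the 8 were higher in the liver (33.6% of all genes were) and 1 was higher in the gonads (30.8% of all genes were). MYLK3 was higher in the liver by 2.35 on the log2 scale (SE 0.193, adjusted p = 1.55e-11, edgeR), MYL7 by 3.08 (SE 0.436, adjusted p = 5.53e-07, edgeR) and MYBPC3 by 1.75 (SE 0.242, adjusted p = 3.73e-07, edgeR). MYH6 was lower in the liver by 1.65 on the log2 scale (log2 fold change -1.65, SE 0.513, adjusted p = 0.00651, edgeR). MYL3 and MYL4 did not pass the test, with differences of 0.87 (SE 0.689, adjusted p = 0.271, edgeR) and 0.12 (SE 0.196, adjusted p = 0.599, edgeR). The median over the 8 genes was 2.05, against 0 over all genes.

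The remaining calls between liver and gonads, of MYH7 and MYL2, rest on 4 and 3 of the liver libraries. MYL2 had 40909, 23007 and 12290 counts in the livers of fetuses 3, 4 and 5, or 2408, 1623 and 400 CPM, and at most 1 count in each of the other 5 livers. The liver of fetus 3 thus came close to the lowest heart, at 2506 CPM, without reaching it. Heart exceeded liver in MYL2 by 2.54 on the log2 scale (SE 1.22, adjusted p = 0.0751, edgeR), which did not pass the test. It became 5.79 (adjusted p = 0.0369, edgeR) with the fetus as a replicate block, 3.41 (adjusted p = 0.0376, edgeR) without fetus 3, and 16.53 (adjusted p = 1.81e-19, edgeR) without the livers of fetuses 3, 4 and 5. Liver exceeded gonads in MYL2 by 9.28 (SE 1.60, adjusted p = 1.23e-05, edgeR). With the replicate block this was 6.57 (adjusted p = 0.0825, edgeR), and without those 3 livers the sign turned, to -4.72 (adjusted p = 2.77e-08, edgeR). Beyond fetus 3, no single fetus changed either call when it was left out.

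MYH7 followed another set of livers. It had 952, 398, 1275 and 477 counts in fetuses 3, 5, 8 and 9 and at most 1 count in fetuses 1, 2, 4 and 10. In the liver of fetus 4, MYL2 had 23007 counts and MYH7 had 0, and in the liver of fetus 8 MYH7 had 1275 counts and MYL2 had 1. Liver exceeded gonads in MYH7 by 3.26 on the log2 scale (SE 0.802, adjusted p = 0.000875, edgeR), and by 2.41 (adjusted p = 0.0669, edgeR) with the replicate block. The other 6 genes did not jump in this way and had at most 871 counts in any liver. MYL4 was at its lowest, 39 counts, in the liver of fetus 3, where MYL2 was at its highest.

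**Figure D2:**
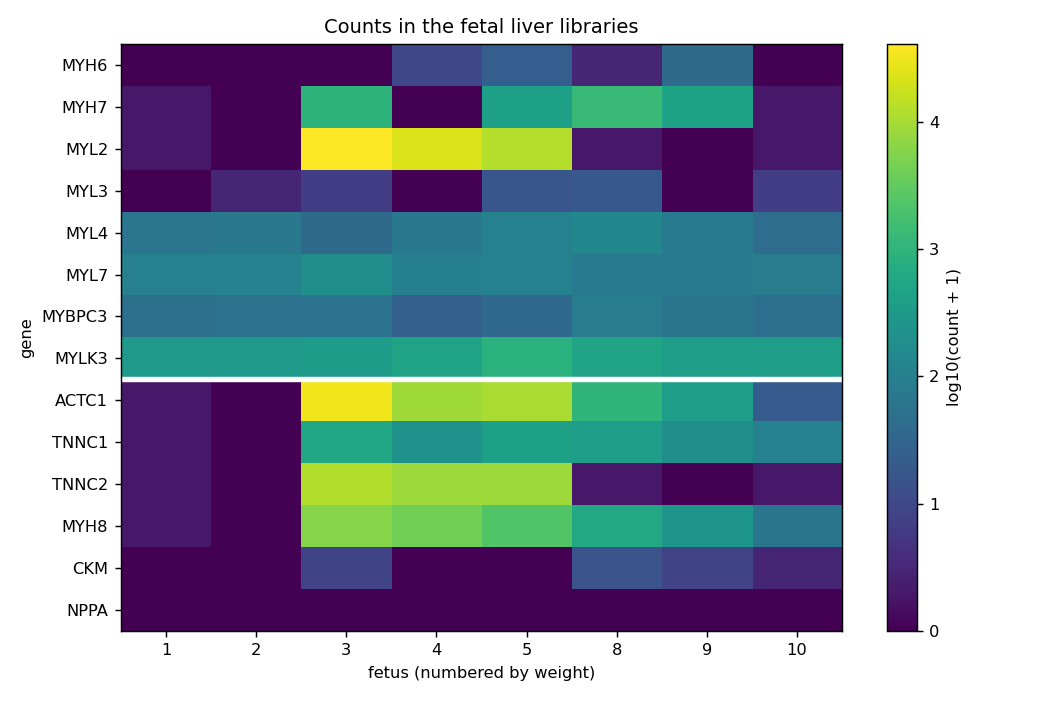
Counts of the 8 genes (above the white line) and of 6 marker genes of heart and skeletal muscle (below it) in the 8 fetal liver libraries, coloured by log10 of the count plus 1. MYL2 is bright in fetuses 3, 4 and 5 with TNNC2, ACTC1 and MYH8, MYH7 is bright in fetuses 3, 5, 8 and 9, and NPPA is at 0 throughout.

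Markers of striated muscle in the same liver libraries moved only in part with MYL2. TNNC2, the troponin C of fast skeletal muscle, had 11940, 8721 and 8479 counts in fetuses 3, 4 and 5 and at most 1 in the other 5 livers, the same libraries as MYL2. ACTC1, cardiac actin, had 31997, 8905 and 10825 counts in these 3 livers, 0 or 1 in fetuses 1 and 2, and 21 to 1039 in fetuses 8, 9 and 10. The heavy chain MYH8, a perinatal skeletal form, had 6000, 4327 and 2243 counts there and 0 to 610 elsewhere. The cardiac genes NPPA and NKX2-5 were at 0 in all 8 livers, and the muscle creatine kinase CKM did not exceed 14 counts. Over the whole lists, the summed level of the 10 cardiomyocyte markers ran from 39.8 to 2039 CPM in the livers against 28.9 to 47.3 CPM in the gonads, with PLN and NKX2-5 at 0, and that of the 9 skeletal muscle markers from 27.6 to 752 CPM against 14.7 to 36.9 CPM. Single genes made up most of both upper ends, which came from fetus 3, where ACTC1 had 1884 CPM and TNNC2 702.9 CPM. The other fast troponins did not move with them, since TNNI2 had 197 to 296 and TNNT3 213 to 505 counts over the 8 livers, with 217 and 455 in fetus 3. Altogether 47 of the 333 liver genes with such jumps were at 300 counts or more in exactly fetuses 3, 4 and 5. The part of other tissue, or of steps before deposit, in these liver values was not tested.

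The question along fetal weight was which of these genes changed in the heart as the fetuses grew heavier. Levels here are CPM scaled over the 9 hearts alone, and slopes are log2 change per 0.1 g from edgeR's quasi-likelihood test over 16250 genes. Of the 8 genes, 1 rose, the kinase MYLK3, where 5.22% of all genes rose, and 0 fell, where 1.54% of all genes did. Between the transfer groups 0 of the 8 were called in either direction (0.0369% of all genes were called higher in ET_D9 and 0.0123% lower), although 3 of them, MYL2, MYL4 and MYLK3, lay higher in every ET_D9 heart than in any ET_D7 heart and had unadjusted p-values under 0.05. Over all genes, 6.62% lay higher in every ET_D9 heart in this way and 3.5% lay lower, as 0 of the 8 did, and 24.6% had an unadjusted p under 0.05 in either direction. DESeq2 called these 3 genes between the groups (adjusted p = 2.6e-05 for MYL2, 0.00701 for MYL4 and 0.00109 for MYLK3, DESeq2), among 2166 genes that it called. Without fetus 3 edgeR called MYL2 (adjusted p = 0.016, edgeR) and MYLK3 (adjusted p = 0.0139, edgeR), among 2846 genes called. The main fit called 8 of the 16250 genes between the groups. The median slope of the 8 was 0.0733, against -0.0136 over all genes.

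MYLK3 had 74.6, 65.7, 97.3, 89.2 and 77.4 CPM in the hearts of fetuses 1 to 5, in that order. In the hearts of fetuses 6, 8, 9 and 10 it had 118.9, 131, 116.4 and 175.5 CPM. Every ET_D9 heart was above every ET_D7 heart, and the heaviest fetus was the highest. The slope was 0.25 (SE 0.0504, adjusted p = 0.0395, edgeR), and the difference of ET_D9 from ET_D7 was 0.74 on the log2 scale (SE 0.158, adjusted p = 0.0637, edgeR). The call along weight was lost with transfer group as a covariate (0.14, adjusted p = 0.699, edgeR) and when any one of fetuses 1, 2, 4, 5, 8 or 10 was left out (adjusted p = 0.119, 0.106, 0.0832, 0.0653, 0.0939 and 0.354, edgeR), with slopes of 0.20 to 0.25 in these 6 fits.

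MYL2, whose protein MYLK3 phosphorylates, had 1907, 2016, 2220, 2242 and 1909 CPM in fetuses 1 to 5. It had 2872, 2946, 2781 and 3243 CPM in fetuses 6, 8, 9 and 10. The lowest ET_D9 heart was 1.24 times the highest ET_D7 heart. Its slope was 0.16 (SE 0.0438, adjusted p = 0.0568, edgeR) and its difference between the groups 0.52 (SE 0.115, adjusted p = 0.0641, edgeR), both past the unadjusted and short of the adjusted threshold. MYL2 passed along weight with DESeq2 size factors (adjusted p = 0.0426, edgeR) and with the mitochondrial genes left out (adjusted p = 0.0497, edgeR). With transfer group as a covariate no gene was called along weight. Over 14 alternatives the slope of MYL2 ran from 0.0427 to 0.1805, with adjusted p from 0.000834 to 0.841 (edgeR or DESeq2).

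MYL4 had 1743, 1670, 1622, 1983 and 1890 CPM in fetuses 1 to 5 and 2163, 2658, 2195 and 2226 CPM in fetuses 6, 8, 9 and 10. Its groups did not overlap either, with the highest value in fetus 8. The slope was 0.11 (SE 0.0437, adjusted p = 0.125, edgeR) and the group difference 0.38 (SE 0.121, adjusted p = 0.102, edgeR). Over 14 alternatives the slope of MYL4 ran from 0.0227 to 0.1383. MYL7 overlapped between the groups, at 2671 to 3206 CPM in ET_D7 and 3105 to 3862 CPM in ET_D9, and had a slope of 0.06 (SE 0.0407, adjusted p = 0.363, edgeR).

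The other 4 genes had slopes of either sign and adjusted p-values of 0.432 or more. MYL3 ran from 1983 to 4249 CPM in the ET_D7 hearts and from 2390 to 3987 CPM in the ET_D9 hearts, with a slope of -0.09 (SE 0.0733, adjusted p = 0.432, edgeR). Its lowest heart was that of fetus 3, which had the highest MYH7, at 10830 CPM. MYH7 had a slope of -0.02 (SE 0.0536, adjusted p = 0.859, edgeR) and MYBPC3 of 0.003 (SE 0.0743, adjusted p = 0.983, edgeR). MYH6 had a slope of 0.09 (SE 0.104, adjusted p = 0.591, edgeR) and varied most among the hearts, with a coefficient of variation of 38.9% against 10.9% for MYL7, the lowest of the 8.

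**Figure D3:**
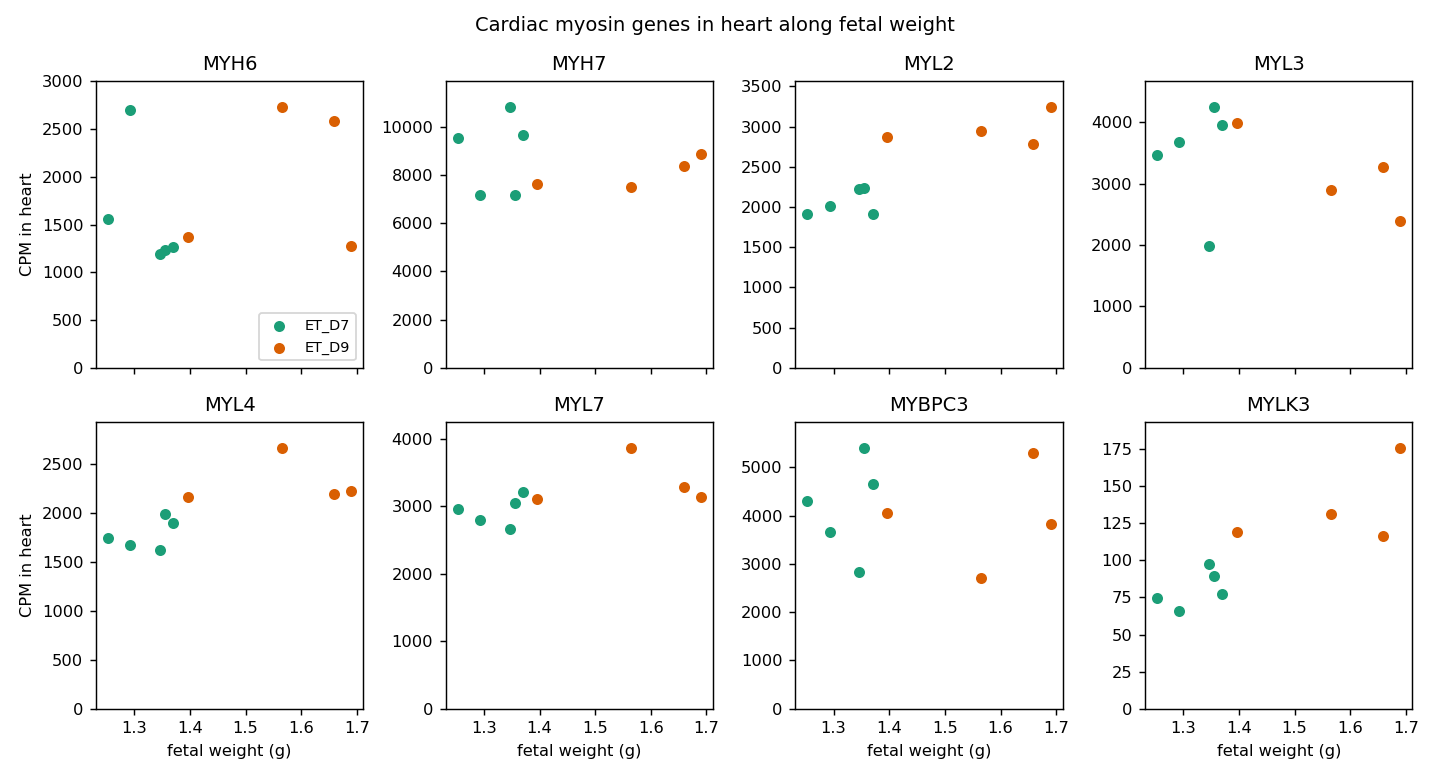
CPM of each gene in the 9 hearts, scaled over the hearts alone, against fetal weight in g, with ET_D7 in green and ET_D9 in orange; each point is 1 library. For MYL2, MYL4 and MYLK3 all 4 ET_D9 hearts lie above all 5 ET_D7 hearts, while MYH6 splits into high and low hearts within both groups.

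A spline of weight with 3 degrees of freedom called 0 of the 16250 genes with edgeR, while 1298 genes (7.99%) had an unadjusted p under 0.05. MYLK3 was among these (p = 0.0139, edgeR, adjusted p = 0.601), and MYL2 and MYL4 were not (p = 0.0685 and 0.0713, edgeR). DESeq2's likelihood ratio test called 535 genes for the same spline, MYL4 and MYLK3 among them (adjusted p = 0.0323 and 0.0238, DESeq2).

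Other properties of the hearts were read by the same split. The mitochondrial share of the counts was 23.5% to 57.3% in the ET_D7 hearts and 17.1% to 39.0% in the ET_D9 hearts. The summed level of 7 endocardial and endothelial markers was 228 to 267 CPM in ET_D7 and 286 to 366 CPM in ET_D9. It was the only 1 of 10 marker lists whose groups did not overlap. Of single genes, 6.62% lay higher in every ET_D9 heart and 3.5% lay lower, and no such share was computed for sums over lists. Of these 7 markers, 2 rose with weight, where 5.22% of all genes rose. They were PECAM1 and CDH5, with slopes of 0.29 and 0.21 per 0.1 g (adjusted p = 0.0395 and 0.0432, edgeR). The summed cardiomyocyte, atrial and ventricular markers overlapped, at 15660 to 28450 against 18710 to 25770 CPM, 260 to 502 against 298 to 481 CPM and 257 to 633 against 324 to 588 CPM. None of the 4 atrial and 5 ventricular markers tested was called along weight, while the atrial markers SLN and KCNA5 had too few counts to be tested. Of the 9 cardiomyocyte markers tested, TNNC1 and TBX20 rose by 0.37 and 0.23 per 0.1 g (adjusted p = 0.0395 and 0.0426, edgeR). The median slope of the 9 was -0.0257, against -0.0136 over all genes, and none was called falling. Besides PECAM1 and CDH5, the other lists gave calls for TBX18 of 6 epicardial markers (0.60, adjusted p = 0.0395, edgeR) and TNNI2 of 6 skeletal muscle markers (-0.23, adjusted p = 0.0483, edgeR). As for MYLK3, no call of any gene along weight was kept without fetus 1, 2, 4, 5, 8 or 10 or with transfer group as a covariate. The part of cell makeup or of the mitochondrial share in the values of MYLK3, MYL2 and MYL4 was not tested.

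Ratios of counts within a library do not depend on its depth, and 4 of them between myosin chains were followed along weight over the 9 hearts. Only their change is read, since their size also depends on transcript length. The ratio of MYL7 to MYL4, the atrial light chains, was 1.70, 1.67, 1.65, 1.54 and 1.70 in fetuses 1 to 5 and 1.44, 1.45, 1.50 and 1.41 in fetuses 6, 8, 9 and 10. The groups did not overlap, and within each the ratio spanned a narrow range. The coefficient of its log2 with weight was r = -0.77 (exact permutation test over 362880 orders, two-sided, p = 0.0188, adjusted over the 4 ratios p = 0.0584) and rho = -0.83 (exact permutation p = 0.00827, adjusted p = 0.0331). Leaving out fetuses 9 and 10, whose weights lay farthest from the median, gave r = -0.74 (exact permutation p = 0.029). Centring each transfer group gave r = -0.08 (exact permutation within groups, p = 0.79). With 5 and 4 hearts over narrower weight ranges, this could not show whether a relation exists within the groups.

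MYL4 to MYL3, the atrial against the ventricular essential light chain, was 0.503, 0.454, 0.818, 0.467 and 0.477 in fetuses 1 to 5. In fetuses 6, 8, 9 and 10 it was 0.542, 0.918, 0.671 and 0.932. Fetus 3 stood apart from the other ET_D7 hearts and lay among the ET_D9 values. The correlation of its log2 with weight was r = 0.72 (exact permutation p = 0.0292, adjusted p = 0.0584) and rho = 0.67 (exact permutation p = 0.0589). Leaving out fetuses 9 and 10 gave r = 0.69 (exact permutation p = 0.0911), and centring each transfer group gave r = 0.49 (exact permutation p = 0.244).

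MYL7 to MYL2, the atrial against the ventricular regulatory light chain, ran from 1.20 to 1.68 in ET_D7 and from 0.969 to 1.31 in ET_D9. Its correlation with weight was r = -0.65 (exact permutation p = 0.0651, adjusted p = 0.0867) and rho = -0.70 (exact permutation p = 0.0433, adjusted p = 0.0785). It was weaker without fetuses 9 and 10 (r = -0.31, exact permutation p = 0.518), which left fewer hearts over a narrower weight range. With any 1 fetus left out r ran from -0.74 to -0.44. Centring each transfer group gave r = -0.12 (exact permutation p = 0.799). Of the atrial to ventricular light chain ratios, the essential pair thus had a positive and the regulatory pair a negative coefficient, and neither passed after adjustment over the 4 ratios. MYL7 to MYL4, the ratio set as a reference for these chamber ratios, had the largest r of the 4 in size (-0.77).

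MYH6 to MYH7 ran from 0.110 in fetus 3 to 0.376 in fetus 2 and was over 0.30 in fetuses 2, 8 and 9 alone. It had no detectable relation to weight at this number of hearts (r = 0.23, exact permutation p = 0.522, rho = 0.08, exact permutation p = 0.843). It varied by a factor of up to 3.42 between hearts, more than the 1.20 of MYL7 to MYL4.

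**Figure D4:**
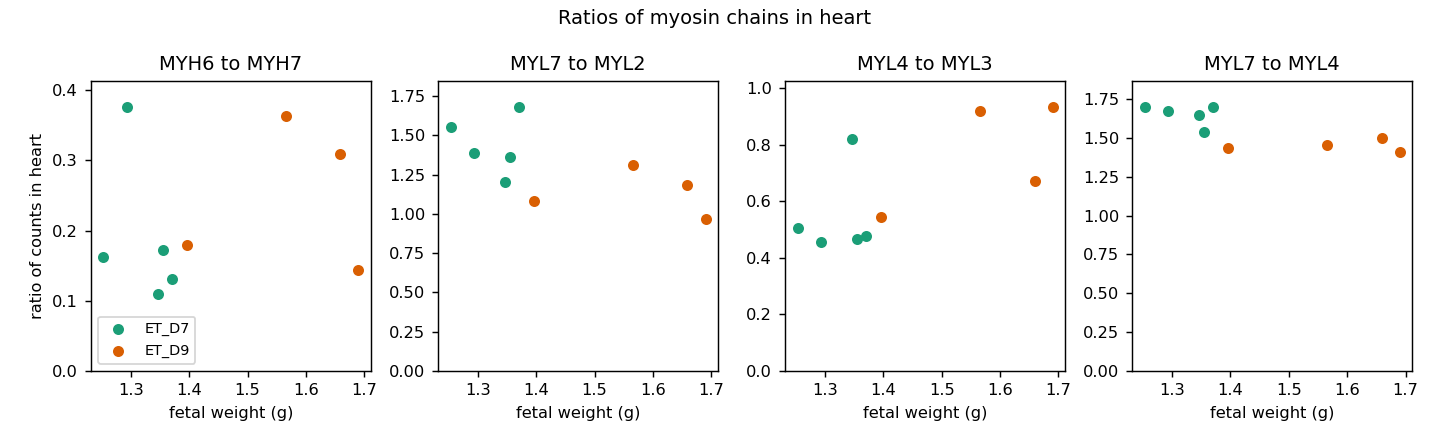
Ratios of the counts of 4 pairs of myosin genes in the 9 hearts against fetal weight in g, with ET_D7 in green and ET_D9 in orange. MYL7 to MYL4 lies between 1.54 and 1.70 in ET_D7 and between 1.41 and 1.50 in ET_D9, and MYH6 to MYH7 is high in fetuses 2, 8 and 9.

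Among themselves, the 8 genes had correlations of either sign in the heart. Over the 9 libraries the Pearson correlation of log2 CPM was 0.95 between MYLK3 and MYL2, 0.92 between MYL4 and MYL7 and 0.81 between MYL2 and MYL4, and -0.58 between MYH7 and MYL3 and -0.49 between MYH6 and MYH7. These 28 coefficients describe 9 libraries that share one scaling and carry no test. The genes most like 6 of the members over the same hearts, among 8588 with a mean of at least 10 CPM, were GEMIN2 (r = 0.998) and MCL1 for MYLK3, TOR1A (0.995) and MED17 for MYL2, RPL17 (0.986) and MED4 for MYL4, and POLR1D (0.995) and LOC782668 for MYL7. For MYH7 they were FBLIM1 (0.987) and ADCY6, and for MYH6 IGFBP7 (0.939) and CDK2AP1. The member with the lowest best coefficient was MYH6. These coefficients are the highest of 8588 for each member over only 9 libraries, and they carry no test either. Over all 26 organ libraries the genes with the highest mean correlation to the 8 were ASB2 (mean r of 0.945), HSPB8, COX7A1, RCAN1 and RRAD (0.941 each). These points share their organ, and the coefficients describe mainly the step between heart and the other organs.

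The proteins around this myosin were read from lists of related genes. Of 14 tested thick filament partners and assembly factors, 11 exceeded gonads and liver in the heart, as 11.1% of all genes did. The smaller of the 2 log2 fold changes had a median of 4.02 over the list, and MYOZ2 was listed at 0 in every library. SMYD1, a methyltransferase needed for sarcomere assembly, had 346.8 ± 112 CPM in the heart (SD, n = 9) and log2 fold changes of 9.41 and 9.55 over gonads and liver (adjusted p = 5.07e-14 and 1.23e-13, edgeR). UNC45B, the chaperone that folds the myosin head, had 329.5 ± 57.2 CPM and was higher by 8.46 and 9.19 (adjusted p = 2.99e-13 and 2.92e-13, edgeR). TRIM55 and TRIM54, RING finger proteins of the sarcomere, were higher by at least 7.74 and 7.13 on the log2 scale over either organ. In this list MYBPC1, the slow skeletal relative of MYBPC3, rose with weight in the heart, by 0.32 per 0.1 g (SE 0.0817, adjusted p = 0.0471, edgeR), from a mean of 8.58 CPM.

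Of 8 other muscle heavy chains, 1 was higher in the heart than in gonads and liver, a share near the 11.1% of all genes. This was MYH7B, a relative of MYH7, with 2228 ± 812 CPM in the heart and smaller log2 fold change 6.67 (SE 0.324, adjusted p = 1.91e-16, edgeR, over the liver). The fast skeletal chains MYH2 and MYH4 did not exceed 6 counts in any heart library, and both were lower than in the liver, by 2.65 and 2.94 on the log2 scale (log2 fold changes of -2.65 and -2.94, adjusted p = 0.0198 and 0.0377, edgeR), where they did not exceed 17 counts either. Of the 4 smooth muscle and non-muscle heavy chains 2 were higher and 1 lower than in both organs, and MYH14, a non-muscle chain, was lower than in the liver (log2 fold change -2.20, adjusted p = 6.34e-12, edgeR). Of 9 other light chains 3 were higher than in both organs and 0 lower. Of 7 light chain kinases and phosphatase subunits 1 was higher, again near the 11.1% of all genes. PPP1CB, the catalytic subunit of the myosin phosphatase, which removes the phosphate that MYLK3 adds, rose with weight by 0.23 per 0.1 g (SE 0.0543, adjusted p = 0.0419, edgeR). Over the 5 lists, MYBPC1 and PPP1CB were the 2 genes called along weight of 36 tested, a share near the 5.22% of all genes that rose, and neither was called without fetus 1, 2, 4, 5, 8 or 10.

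In maternal blood most of these genes were near 0, and 2 heifers stood apart. MYH7 had 144426 counts in the heifer of fetus 2 and 29233 in that of fetus 5, 701 in that of fetus 3, and 0 to 92 in the other 7. MYL2 had 22072, 6914 and 118 counts in the same 3 heifers and 0 to 36 in the others. MYH6 had 878 and 329 counts in the heifers of fetuses 2 and 5 and at most 14 in the other 8. The high values of all 3 genes were thus in the same 2 libraries, both from ET_D7 heifers.

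The other 5 genes did not share this pattern to the same extent. MYL3, which slow skeletal muscle also uses, had 48 and 24 counts in these 2 heifers and 2 to 27 in the others. MYL4 and MYL7 had at most 16 and 10 counts in any heifer and at most 2 in these 2. MYBPC3 ran from 18 to 52 counts, with 36 and 30 in these heifers, and MYLK3 from 64 to 228, with 228 in the heifer of fetus 2 and 80 in that of fetus 5.

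Some but not all genes of skeletal muscle were high in the same blood libraries. Skeletal actin ACTA1 had 48556 and 12498 counts in the heifers of fetuses 2 and 5, 456 in that of fetus 3 and 70 to 144 in the other 7. CKM had 10948, 3226 and 88 counts in these 3 heifers and 0 to 8 elsewhere. TNNI1 and TNNC1, troponins that slow skeletal muscle shares with the heart, had 9257 and 9168 counts in the heifer of fetus 2 and 2515 and 3278 in that of fetus 5. The cardiac genes TNNI3 and NPPA did not exceed 12 and 8 counts in any heifer, and NKX2-5 was at 0 in all 10. The summed skeletal muscle markers ran from 8.43 CPM to 1398 CPM over the heifers, with a median of 13.4 CPM, and ACTA1 (1122 CPM) and CKM (253 CPM) made up most of the highest sum. From the same list, TNNI2 had 275 and 292 counts in the heifers of fetuses 2 and 5 and 332 in that of fetus 3, TNNT3 had 270 and 396 counts against 76 to 224 in the others, and MYOD1 and MYOG did not exceed 2 and 16 counts. The summed level of the cardiomyocyte markers ran from 0.0981 to 611 CPM, with PLN and NKX2-5 at 0. Most of the highest sum, in the heifer of fetus 2, was TNNI1 (213.9 CPM), TNNC1 (211.9 CPM) and ACTN2 (182.5 CPM). In that library TNNT2, TNNI3, RYR2 and ACTC1 had 0.185, 0.0231, 0.393 and 2.22 CPM. The part of muscle tissue taken up with the blood in these values was not tested.

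**Figure D5:**
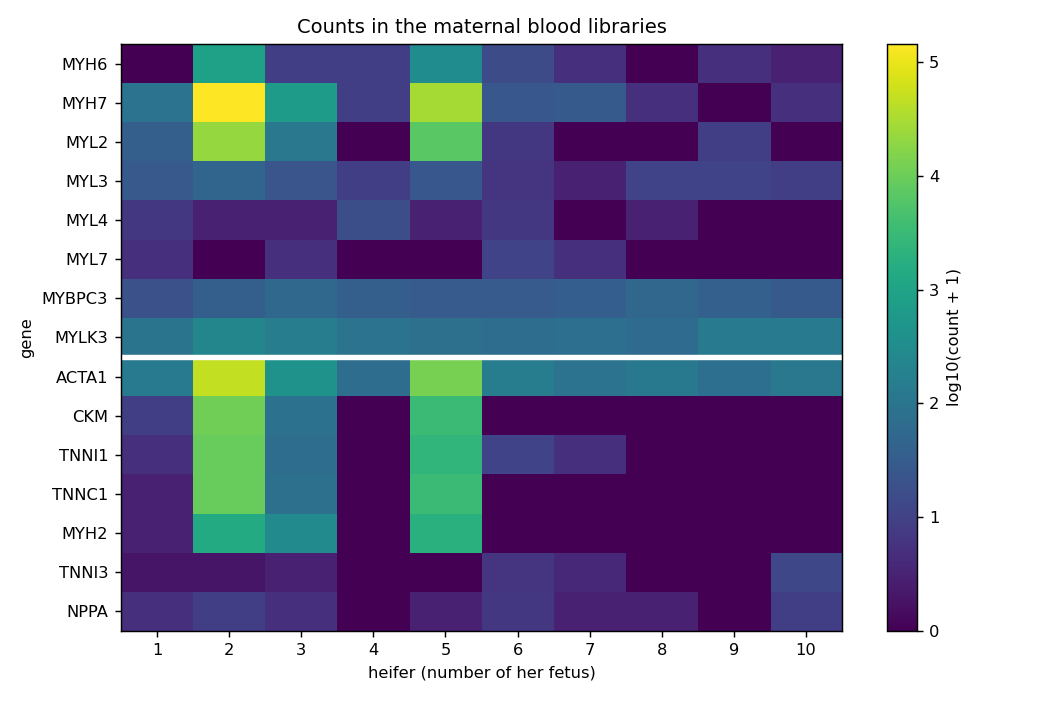
Counts of the 8 genes (above the white line) and of 7 marker genes of skeletal and heart muscle (below it) in the 10 maternal blood libraries, coloured by log10 of the count plus 1. MYH6, MYH7 and MYL2 are bright in the heifers of fetuses 2 and 5 together with ACTA1, CKM, TNNI1, TNNC1 and MYH2, while MYL4, MYL7, TNNI3 and NPPA stay dark in all 10.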

How the data were processed

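The authors used Trimmomatic for trimming, STAR 2.7.0b for alignment to the ARS-UCD1.3 bovine assembly and featureCounts (Subread 2.0.3) for counting per gene, and deposited whole-number counts, not normalized as far as the sources used here state. Strand, multi-mapping and read pair options of the counting are not given in the sources used here. Of 35092 Entrez identifiers 31630 matched RefSeq (ARS-UCD2.0), used for names and neighbours only. The 8 genes and all lists were chosen with earlier results of these data known.

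Counts were analysed in R 4.3.3 with edgeR 4.0.16 (TMM, quasi-likelihood, Benjamini-Hochberg, adjusted p under 0.05). One fit held the 26 organ libraries and every gene with at least 1 count. Heart fits (linear in weight, 3 df spline, ET_D9 against ET_D7) held genes that reached 10 counts in 4 or more libraries. The heart against gonad test and the linear weight slope were tried on simulated data, and the other tests were not. Ratios used log2 with 1 count added and exact permutation tests, 4 in the family (scipy 1.17.1). Fetuses that share a number are the same animal: the median correlation of same-fetus deviations was 0.157 for heart and gonad, 0.0067 for heart and liver and 0.0429 for liver and gonad, against -0.0953, 0.0021 and -0.005 for other pairs. Blood libraries, made with another kit, were given as counts with no test. Replicates are separate animals, apart from the liver libraries named in the report.

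Named beyond the 8 were, over the 5 lists of related genes, the 5 largest and 3 smallest by the smaller heart fold change among genes that reached 10 counts in 4 or more of 26 libraries, and the likest genes by correlation, which are not reported here for MYL3 and MYBPC3. MYBPC1, PPP1CB and the marker genes named singly were chosen after their values were seen. Alternatives were DESeq2 1.42.0, its size factors, mitochondrial genes left out, another count filter, transfer group as a covariate, the fetus as replicate block and each fetus left out. Of the marker lists, the numbers higher in the heart than in both organs were, as tested, 9 of 9 cardiomyocyte, 5 of 5 ventricular, 2 of 6 atrial, 5 of 7 endocardial and endothelial, 1 of 6 epicardial, 2 of 7 fibroblast, 4 of 5 smooth muscle, 3 of 9 skeletal muscle, 0 of 8 erythroid, 0 of 5 hepatocyte, 3 of 5 Sertoli, 0 of 6 mesonephros and kidney and 0 of 3 leukocyte markers.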

Additional observations from a re-analysis of the deposited data

Results flagged for a closer look

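In 8 of 32 combinations of gene and tissue, 1 library lay farther from the rest than Dixon's 95% critical value. For separate groups of normally distributed values, chance alone sets apart about 1 in 20. Some of these groups are strongly skewed, and the genes share libraries, so that rate need not hold here. In the heart this was MYL7 in fetus 8 (5088 CPM over all organs' scaling), in the gonads MYH7 and MYBPC3 in fetus 7 (3.23 and 1.51 CPM), whose heart and liver are not among the libraries, and in the liver MYH6 in fetus 9 (1.90 CPM). In maternal blood it was MYH7 (3338 CPM), MYL2 (510 CPM) and MYLK3 (5.27 CPM) in the heifer of fetus 2 and MYL4 (0.592 CPM, 16 counts) in that of fetus 4. The MYL4, MYBPC3 and MYH6 values stand for few reads.

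The blood libraries entered no comparison, and each of the 8 genes had more counts in at least 1 of them than the 3 that a count of 0 allows. The highest counts in a heifer were 878 for MYH6, 144426 for MYH7, 22072 for MYL2, 48 for MYL3, 16 for MYL4, 10 for MYL7, 52 for MYBPC3 and 228 for MYLK3.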

How the results depend on the processing

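Between organs, all 8 genes were higher in the heart than the gonads under each of 16 alternatives, and 7 or 8 were higher than the liver under each of 17. The MYL2 and MYH7 liver values above were the exceptions among the organ calls, with MYL3, which was higher in the liver than the gonads without fetus 7 (1.55, adjusted p = 0.0457, edgeR). Without the livers of fetuses 3, 4 and 5 the MYL2 difference of liver from gonads was -4.72. The replicate block changed no organ call of the 8 genes but 3: MYL2 heart against liver 5.79 (adjusted p = 0.0369), MYL2 liver against gonads 6.57 (adjusted p = 0.0825) and MYH7 liver against gonads 2.41 (adjusted p = 0.0669, all edgeR). The 2 alternatives for the liver libraries and the fit of heart and gonads alone were chosen after the data were seen.

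Along weight the calls were less stable. Of 1100 genes called by the linear fit, the count was 706 with genes of at least 1 count, 0 with transfer group as a covariate, 3066 with DESeq2, and 0 to 3947 with 1 fetus left out (3947 without fetus 3, 1661 without fetus 9, and 0 without fetus 1, 2, 4, 5, 8 or 10). The spline count of 0 became 535 with DESeq2. The 8 genes called between transfer groups became 2166 with DESeq2 and 0 to 2846 with 1 fetus left out (2846 without fetus 3). Of the 8 myosin genes, the 1 that rose became 2 with DESeq2 size factors or without mitochondrial genes, 0 with the covariate, 3 with DESeq2, and 0 to 2 with 1 fetus left out. Slopes that changed sign were those of MYH6 (-0.0178) and MYH7 (0.0654) with the covariate, and, with 1 fetus left out, MYH7 (-0.0388 to 0.0027) and MYBPC3 (-0.0715 to 0.0394). The group difference of MYBPC3 ranged from -0.2414 to 0.0739 in those fits.

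For the ratios, MYH6 to MYH7 had r = -0.11 with group means removed, and 0.0489 to 0.52 with 1 fetus left out. MYL7 to MYL2 had rho = -0.70, and its r of -0.65 became -0.12 with group means removed and -0.74 to -0.44 with 1 left out. MYL4 to MYL3 had rho = 0.67, and its r of 0.72 became 0.49 with group means removed, 0.69 without fetuses 9 and 10, and 0.60 to 0.87 with 1 left out. MYL7 to MYL4 had r = -0.0845 with group means removed and r = -0.89 to -0.69 with 1 left out, the last without fetus 10 (exact permutation p = 0.0518). The cause of these shifts was not tested. With 5 and 4 hearts, and weight tied to group, the lack of a call does not show the lack of an effect. MYL2 was not called between the groups (adjusted p = 0.0641, edgeR), at 2059 ± 163 CPM in ET_D7 and 2960 ± 200 CPM in ET_D9 (SD, n = 5 and 4).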
